A study of Mus musculus with 8 samples.

Results

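Cytosolic ribosomal proteins were examined in NMuMG-NT2197 cells that carried either a mutant or a wild-type form of the adaptor protein ShcA. Members were the probes whose gene name began with Rpl or Rps followed by a digit, p or a. The Rps6k kinases and pseudogene names ending in -ps and digits were left out. This rule found 190 of the 39429 non-control probes on the array, which stood for 86 of 30222 gene names. Of these, 184 probes and 82 genes could be tested, out of 22859 probes and 17339 genes tested in all. One of the 82, Rps19bp1, fits the naming rule but encodes a binding partner of Rps19 and no ribosomal protein. Another, Rpl22p, matched no current gene symbol, and its probes were placed on chromosome 2, while Rpl22 lies on chromosome 4. Whether Rpl22p is a gene of its own was not settled here, and it is counted with the large subunit. Rps19bp1 and Rpl22p are kept in all counts below. NMuMG is a mouse mammary epithelial cell line, and NT2197 denotes its derivative transformed by an activated form of the receptor ErbB2 (Neu). Both groups had been transfected with the pMSCV/hygro vector, which held a wild-type ShcA cDNA in 1 group and, in the other, a ShcA cDNA with the R175Q substitution, an exchange of arginine for glutamine in the phosphotyrosine-binding (PTB) domain. There were 4 arrays of R175Q cells and 4 of wild-type ShcA cells, and the labels did not say whether these were separate cultures, so p-values measure the spread between these samples, which may be technical. The labels did not state whether a group was 1 clone or a pool.

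Each cytosolic ribosome is built from a small subunit, which reads the messenger RNA, and a large subunit, which joins the amino acids, and most ribosomal proteins occur once in each particle. Their messenger RNAs begin with a terminal oligopyrimidine (TOP) tract, through which growth signals such as mTOR act mainly on translation, and their transcription is tied to Myc and RNA polymerase I activity. ShcA couples phosphorylated receptor tyrosine kinases to Ras and phosphoinositide 3-kinase signalling. The arrays measured messenger RNA level and not translation.

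On each array the sample was labelled with Cy3 and a common reference RNA with Cy5, and all values below are log2 ratios of sample over reference or differences between them. The reference cancels in a difference between groups. Between 53.7% and 63% of spots were well above background in Cy3, with 0 saturated spots. How precise a difference can be depends on the number of arrays. Shc1, which encodes ShcA, was at 0.97 ± 0.11 (SD, n = 4) in R175Q and 1.11 ± 0.099 (SD, n = 4) in wild-type arrays, a difference of -0.14 ± 0.074 (SE; adjusted p = 0.37, limma), and the probe cannot tell the forms of ShcA apart. Of 12 epithelial markers, 10 were well above background on at least 4 arrays, among them Krt8, Krt18, Cdh1 and Epcam, while Cldn3 was on 0 arrays. Their ratios to the reference differed widely. Epcam was low, at -4.24 in R175Q and -3.55 in wild-type arrays, and Cdh1 was high, at 4.24 and 4.30. The keratins Krt7 and Krt19 fell by 1.55 and 0.41 on the log2 scale in R175Q (adjusted p = 0.000542 and 0.0317); with slide as a fixed block the differences were -1.61 and -0.39 and neither passed (adjusted p = 0.0502 and 0.29). Within slides Krt7 differed by -1.68, -1.69 and -1.43 and Krt19 by -0.39, -0.45 and -0.32. The Krt19 call was lost without R175Q replicate 1, 2 or 3 or wild-type replicate 1 or 4. All 10 tested epithelial markers had lower means in R175Q, at a median difference of -0.31. The summed Cy3 signal of the epithelial list was 304000 to 381000 in R175Q and 362000 to 428000 in wild-type arrays. Markers of macrophages and myeloid cells were above background for 10 of 11 genes, with sums of 50300 to 53000 in R175Q and 39600 to 56900 in wild-type arrays. Their median ratio to the reference was low, at -3.89 in R175Q and -3.33 in wild-type arrays. The same filter passed 7 of 10 markers of fibroblasts and pericytes, 4 of 9 of lymphocytes and 3 of 8 of endothelial cells. In that order, the median ratios to the reference were -6.63, -1.83 and -0.42 in R175Q and -6.58, -1.45 and -0.65 in wild-type arrays. In bulk RNA, fewer cells of a type and less RNA per cell cannot be told apart, and the part of these lists in the results below was not tested.

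No ribosomal protein gene passed the test between R175Q and wild-type cells. Of the 82 genes, 0 were called at an adjusted p of 0.05 (limma's moderated test, Benjamini-Hochberg over all 17339 genes), where 5.1% of all genes were called, 470 higher and 415 lower. At an unadjusted p of 0.05, 4 of 82 passed, or 4.88%, beside 18.5% of all genes. The differences were small and split evenly between the directions, 42 positive and 40 negative. Their median was 0.00059 on the log2 scale, beside -0.016 over all genes, and they ran from -0.26 for Rplp1 to 0.40 for Rpl37. Most members are bright, and 528 other genes had a mean log2 intensity of both channels of 16 or more. Of these, 2.65% were called and 15% passed at an unadjusted p of 0.05. The share of called members lay below the background share and below that of these bright genes. The differences between these shares were not tested.

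A missed threshold does not show that levels were equal, so the intervals are given. The 95% confidence interval of the difference lay inside a 1.5-fold change in both directions for 81 of 82 ribosomal protein genes (98.8%). The share was 79.1% over all genes and 92.6% over the 528 other bright genes. The interval lay inside a 2-fold change for all 82, beside 91.6% of all genes and 99.8% of the other bright genes. The exception at 1.5-fold was Rpl37. These intervals are those of single genes and carry no adjustment for the number of genes.

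**Figure D1:**
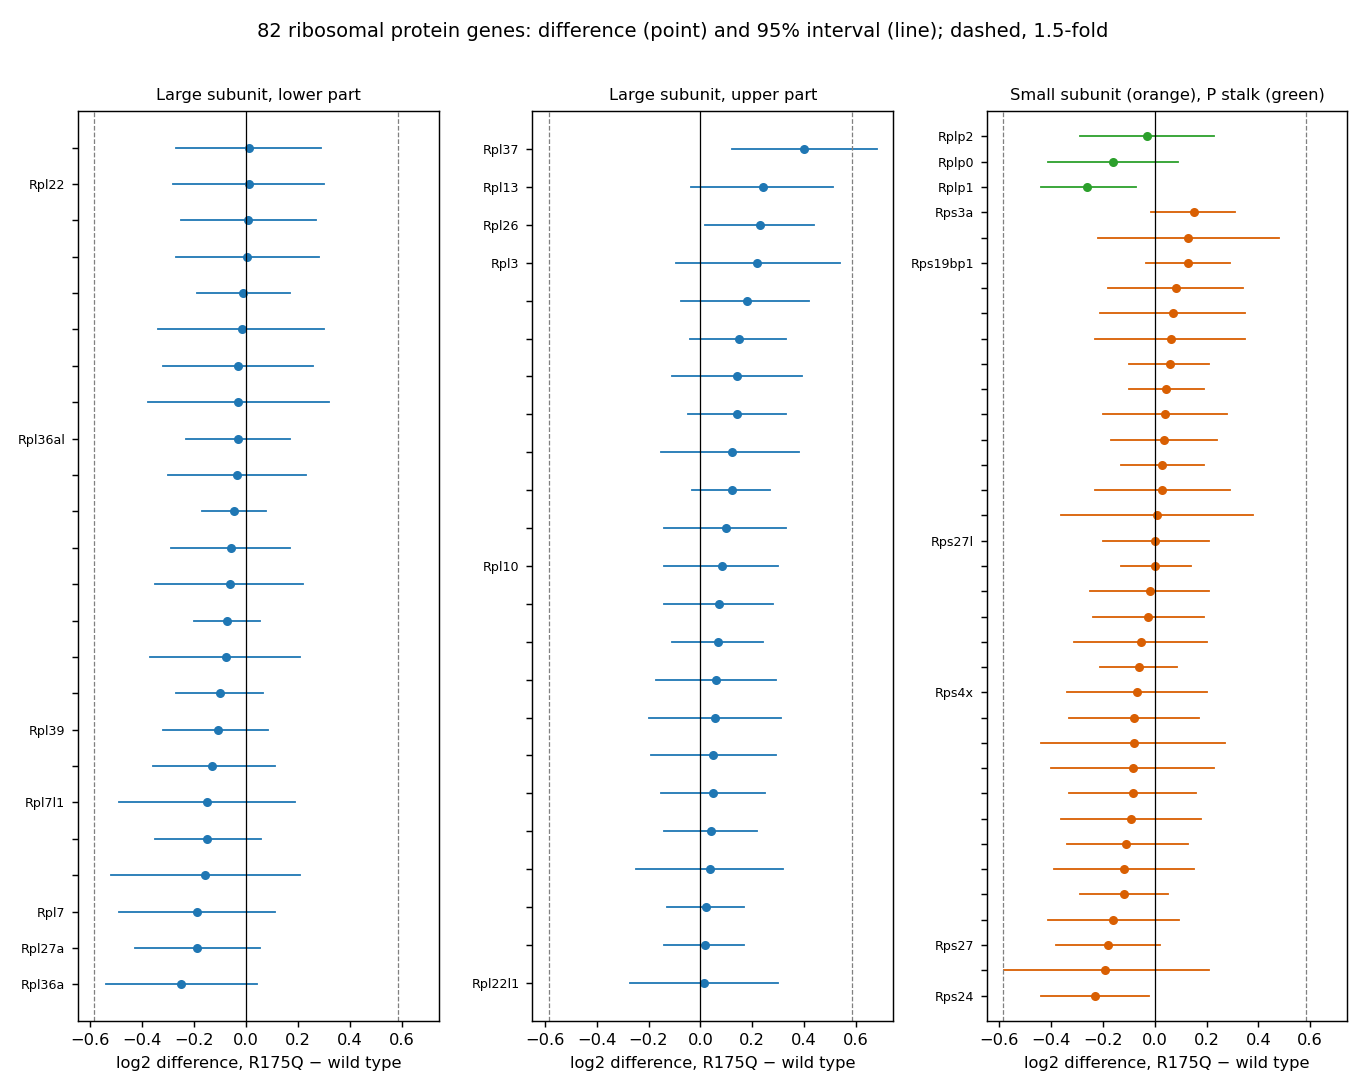
Difference between the group means of log2 ratios, R175Q minus wild type, for each of the 82 genes of the naming rule (point) with its 95% confidence interval (line), large subunit in blue over 2 panels, genes named Rps in orange (Rps19bp1 among them) and P stalk in green; n = 4 arrays a group, dashed lines at a 1.5-fold change, and names only beside genes described in the text. The intervals of 81 genes stay between the dashed lines, and that of Rpl37 crosses the upper one.

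The proteins of the large subunit had a median difference of 0.013 over 47 genes. Rpl37, a small zinc-binding protein that contacts ribosomal RNA, had the lowest p. Its ratios were -0.36, -0.30, -0.26 and -0.19 in R175Q replicates 1 to 4 and -0.60, -0.87, -0.89 and -0.35 in wild-type replicates 1 to 4. Wild-type replicate 4 reached the R175Q range while the other wild-type arrays lay below it. The difference was 0.40 ± 0.12 (SE), 1.32-fold, with an adjusted p of 0.122. Within the slides that held both groups it was 0.30, 0.62 and 0.15. Without wild-type replicate 4 the difference was 0.51 ± 0.087 and the adjusted p 0.0423. With the background set from negative control spots, where 18.7% of all genes were called, Rpl37 passed at 0.40 ± 0.11 (adjusted p = 0.0293). It had 1 probe on the array, so no second probe bears on it.

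Rpl26, which lies near the exit of the peptide tunnel and is also known to bind the p53 messenger RNA, had ratios of -0.065, 0.099, -0.041 and 0.11 in R175Q and -0.11, -0.25, -0.42 and -0.038 in wild-type arrays. The groups overlapped by 1 wild-type array. The difference was 0.23 ± 0.091 (adjusted p = 0.231), and the gene's 3 probes gave 0.23, 0.22 and 0.24. Rpl13 had ratios of -1.0, -0.64, -0.85 and -0.57 in R175Q and -1.12, -0.96, -1.15 and -0.78 in wild-type arrays, a difference of 0.24 ± 0.12 (adjusted p = 0.351) with overlapping groups, and its other probes differed by 0.13, 0.17 and 0.016. In the other direction, Rpl36a had ratios of 0.009, 0.55, 0.40 and 0.47 in R175Q and 0.58, 0.54, 0.50 and 0.80 in wild-type arrays. R175Q replicate 1 stood lowest there, and the difference was -0.25 ± 0.12 (adjusted p = 0.353). The other Rpl36a probes differed by -0.11 and -0.30. Rpl27a differed by -0.19 ± 0.10 (adjusted p = 0.401), while its other probes had the opposite sign, at 0.035 and 0.041.

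The 32 genes named Rps had a median difference of -0.024, and their range was -0.23 to 0.15. Rps3a, known for contacts with initiation factors, had ratios of -0.50, -0.30, -0.47 and -0.26 in R175Q and -0.45, -0.56, -0.59 and -0.52 in wild-type arrays. Its difference of 0.15 ± 0.069 (adjusted p = 0.324) came with overlapping groups, and its other probes differed by -0.05 and -0.0099. Rps27 had ratios of -1.05, -0.84, -0.80 and -0.71 in R175Q and -0.75, -0.78, -0.62 and -0.56 in wild-type arrays, a difference of -0.18 ± 0.086 (adjusted p = 0.334). Its 4 probes lay at -0.18, -0.11, -0.20 and -0.11. All were placed by the files on chromosome 9, while the gene lies on chromosome 3, so signal from a copy cannot be told apart from that of the gene. Rps19bp1, the binding partner of Rps19, differed by 0.13 ± 0.071 (adjusted p = 0.387).

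The P stalk recruits the elongation factors to the large subunit and is made of Rplp0, which anchors it, and the acidic proteins Rplp1 and Rplp2. Rplp1 was the 1 member gene (1.22%) whose groups did not overlap, beside 13.1% of all genes and 8.14% of the 528 other bright genes. Its ratios were -1.16, -1.14, -0.89 and -1.18 in R175Q and -0.88, -0.86, -0.89 and -0.72 in wild-type arrays. R175Q replicate 3 lay at the edge of the wild-type range, level with it to 2 decimals, and the other R175Q arrays lay well below. The difference was -0.26 ± 0.079, 1.19-fold, with an adjusted p of 0.125. Within slides it was -0.26, -0.015 and -0.46. Without R175Q replicate 3 it was -0.33 ± 0.058 (adjusted p = 0.0372). The negative control background, where 18.7% of all genes were called, gave -0.26 ± 0.073 (adjusted p = 0.0356).

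The other stalk genes did not pass. Rplp0 had ratios of -0.97, -0.65, -0.62 and -0.58 in R175Q and -0.68, -0.67, -0.45 and -0.37 in wild-type arrays, a difference of -0.16 ± 0.11 (adjusted p = 0.476). Rplp2 had ratios of -1.09, -0.76, -0.71 and -0.83 in R175Q and -0.87, -0.99, -0.82 and -0.59 in wild-type arrays, a difference of -0.03 ± 0.11 (adjusted p = 0.899). Replicate 1 was the lowest R175Q array for both genes.

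Several ribosomal proteins have a paralog, and some of these paralogs, though not all, are known to take the place of the main copy. Of 8 listed genes named as paralogs the array measured 4 above background. Rpl22l1 differed by 0.015 ± 0.12 beside 0.011 ± 0.13 for Rpl22, Rpl36al by -0.031 ± 0.086 beside -0.25 ± 0.12 for Rpl36a, Rps27l, a p53 target, by 0.00096 ± 0.088 beside -0.18 ± 0.086 for Rps27, and Rpl7l1 by -0.15 ± 0.15 beside -0.19 ± 0.13 for Rpl7, and none of these 8 passed. Rpl3l, known from muscle, was well above background in Cy3 on 2 arrays, Rpl10l, known from testis, on at most 1, and Rpl39l and the gene named Rps4y2 on 0. Probes named for their main copies were all tested: Rpl3 differed by 0.22 ± 0.14, Rpl10 by 0.083 ± 0.096, Rpl39 by -0.11 ± 0.087 and Rps4x by -0.069 ± 0.12. The files placed the Rps4x probes on chromosomes 5 and 3, while the gene lies on X, so signal from copies cannot be told apart from that of Rps4x. The reference channel was above background for Rpl39l on 8 arrays and for Rpl3l on 7. Within slides 2, 3 and 4 Rpl7l1 differed by 0.13, 0.022 and -0.79 in the main fit. Its ratios were 1.37, 1.53, 1.37 and 0.93 in R175Q replicates 1 to 4, so replicate 4 stood lowest. It passed as lower under 2 alternatives. With the negative control background and slide as a fixed block it was -0.26 ± 0.064 (adjusted p = 0.0423), where 1028 of 17339 genes were called higher and 1188 lower. In the deposited value table it was -0.27 ± 0.083 (adjusted p = 0.0434), where 1590 of 17400 genes were called higher and 1602 lower. The difference between a paralog and its main copy was not tested.

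At the level of single probes there was 1 call, in Rps24. It was 1 of the 184 member probes (0.543%), beside 3.99% of all probes called. Rps24 is a small subunit protein whose messenger RNA is alternatively spliced near its 3' end, giving proteins that differ at the C terminus. The files place 4 of its probes on chromosome 14 (mm9, plus strand). One, at chr14:25312695-25315015, is the probe designed from transcript variant 1. Its 60 bases cover 2321 bases of genome, so it spans a gap in the genome alignment, and it lists 1 RefSeq transcript. An exon junction probe at chr14:25311190-25312666 and a 3' end probe at chr14:25315021-25315080 each list 3 transcripts. The last, at chr14:25315026-25315075, was designed from a cDNA clone that the files describe as holding a retained intron. The middle 30 bases of each probe (bases 16 to 45, from the deposited files, 5' to 3') are shown because these sequences carry the only called difference and the probes it is set against. Capitals mark the 25 bases that the windows of both 3' end probes share.
Rps24 junction probe of variant 1: aaaaagtgagtggagattggatacagccaa
Rps24 exon junction probe: gaaaaagacctcccgagaacagcgaaagga
Rps24 3' end probe: gatgtGCAGATTTCTGAGAGGACAAATAAA
Rps24 3' end probe of the retained-intron clone: GCAGATTTCTGAGAGGACAAATAAActaaa

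The variant 1 probe of Rps24 rose in R175Q cells. Its ratios to the reference were -4.02, -3.96, -4.08 and -3.78 in R175Q and -4.49, -4.63, -4.45 and -4.66 in wild-type arrays. Every R175Q array lay above every wild-type array. The means were -3.96 ± 0.13 (SD, n = 4) and -4.56 ± 0.10 (SD, n = 4), and the difference was 0.60 ± 0.082 (SE), 1.52-fold, with an adjusted p of 0.00908 over all probes (limma). The Cy3 signal above local background was 2590 to 5140, while the median of the negative control spots was 13.1 to 22.7, so the probe was well measured although the sample lay far below the reference. Within slides the difference was 0.54, 0.46 and 0.89, where the sign could not differ since the groups did not overlap. Leaving out each array in turn gave 0.54 to 0.64 with adjusted p of 0.00794 to 0.0423. With slide as a fixed block it was 0.61 ± 0.11 and no longer passed (adjusted p = 0.208). With the negative control background and the same block it was 0.72 ± 0.074 (adjusted p = 0.00214), where 1028 of 17339 genes were called higher and 1188 lower.

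The other Rps24 probes did not rise with it. The exon junction probe had ratios of 2.28, 2.35, 2.19 and 2.04 in R175Q and 2.47, 1.98, 2.15 and 2.37 in wild-type arrays, a difference of -0.028 ± 0.12 (adjusted p = 0.915). The 3' end probe, the brightest, had ratios of 0.93, 1.15, 1.17 and 1.36 in R175Q and 1.39, 1.31, 1.38 and 1.46 in wild-type arrays, a difference of -0.23 ± 0.09 (adjusted p = 0.219 over genes). R175Q replicate 4 was the array that overlapped, and without it this probe passed as lower, at -0.30 ± 0.076 (adjusted p = 0.0494). That fit called 854 of 17339 genes higher and 847 lower. The probe of the retained-intron clone differed by -0.11 ± 0.10 (adjusted p = 0.607).

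Set against the other probes on the same array, the variant 1 probe was higher in R175Q by 0.83 ± 0.088 (SE) relative to the 3' end probe, by 0.71 ± 0.14 relative to the retained-intron clone's probe and by 0.63 ± 0.16 relative to the exon junction probe. In each of these 3 contrasts the 4 R175Q arrays all exceeded the 4 wild-type arrays (exact two-sided permutation test, p = 0.0286, the smallest that 70 assignments allow, and 0.0286 after Benjamini-Hochberg adjustment over the 3). The probe was singled out by its own difference, so these p-values are not independent of that choice. The share of Rps24 transcripts in each form cannot be read from these ratios, since each probe has its own ratio to the reference.

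**Figure D2:**
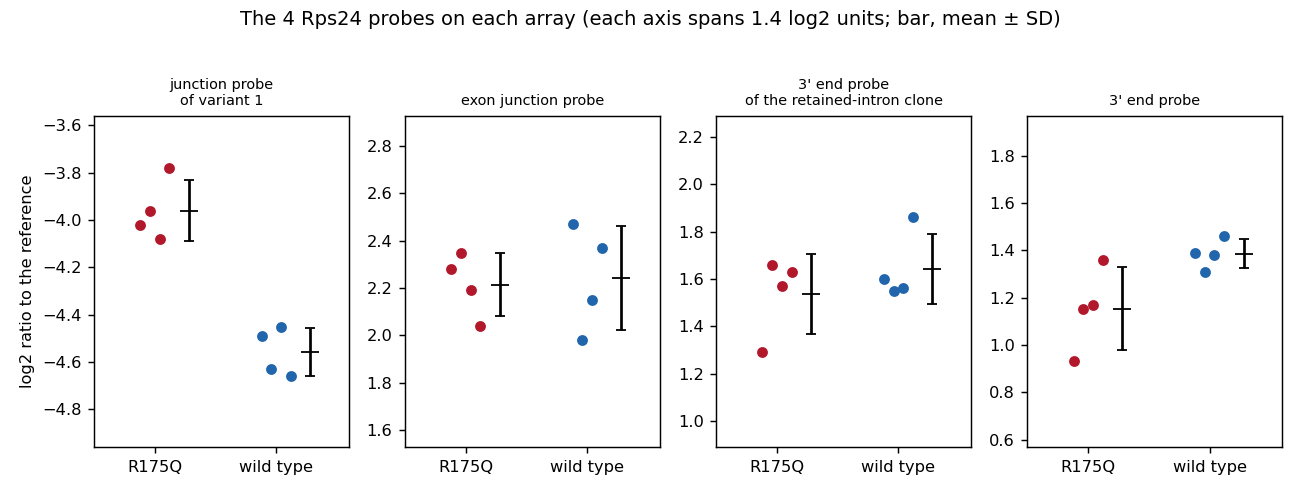
Log2 ratio to the reference of the 4 Rps24 probes on each array, R175Q in red and wild type in blue, with the mean ± SD of 4 arrays as the black bar; each vertical axis spans 1.4 log2 units but starts at its own value. The groups are apart for the junction probe of variant 1 and overlap for the other probes.

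Elsewhere the probes of a gene lay close together. Of the 82 genes, 57 had more than 1 tested probe, and the median gap between a gene's highest and lowest difference was 0.11. Probes of both signs occurred in 26 of the 57 genes. The gap was largest in Rps24, at 0.83. Ribosomal protein genes have many processed copies in the mouse genome, and the files placed 24 of 183 member probes on a chromosome other than that of their gene, including the brightest probe of 4 genes. Signal from such copies and from the parent gene cannot be told apart. A further 63 probes were described as ribosomal proteins under other names, and of the 55 tested none was called in either direction, at a median of -0.031.

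Ribosomal protein messages were among the brightest on the array. All 82 genes were well above background on all 8 arrays. The median brightness, the mean log2 intensity of both channels, was 16.61 over member genes and 11.20 over all genes. Of the 696 tested probes at 16 or above, 114 (16.4%) were members. Among the 528 other genes at that brightness, 6 were called higher and 8 lower (2.65%). Their spread was not smaller than that of other genes: the median spread within groups was 0.16 (SD) for member genes and 0.12 for all genes, and the median SE of the difference was 0.10 and 0.085. Leaving the member probes out of the curve that centres each array gave a median difference of 0.0032 in place of 0.00059, with 0 of the 82 member genes called.

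**Figure D3:**
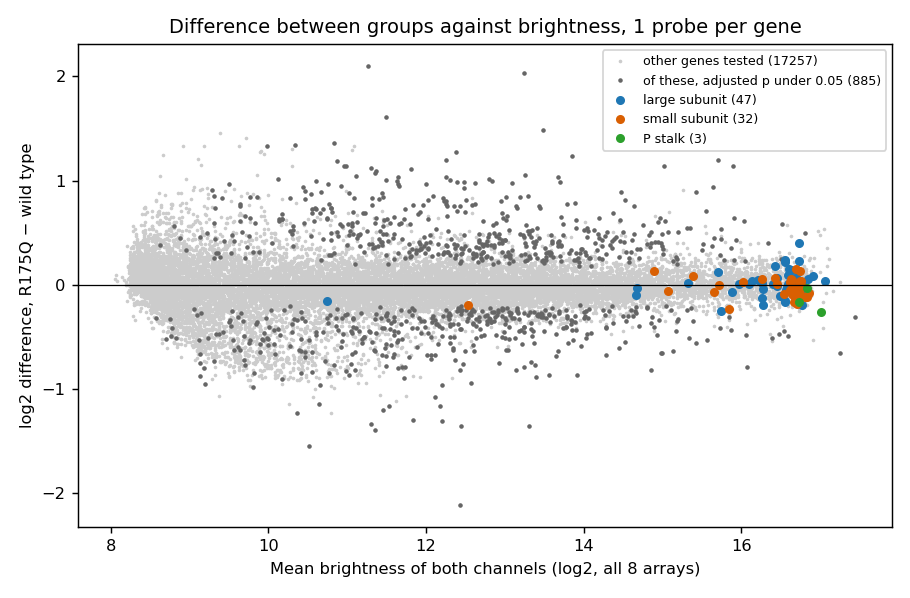
Difference between groups (R175Q minus wild type, log2) against mean brightness of both channels (log2, all 8 arrays), 1 probe per gene, with other genes in light grey, those of them with an adjusted p under 0.05 in dark grey and the 82 ribosomal protein genes in colour by subunit. The coloured points sit at the bright end, mostly above 14 on the horizontal axis, and none of them is among the 885 called genes.

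The median over the members differed more between single arrays than between the groups. Each gene's ratio was taken relative to the midpoint of its group means. The median over the 82 genes was then -0.17 on R175Q replicate 1, where 71 genes lay below their midpoint, and 0.11 on R175Q replicate 4, where 66 lay above. The wild-type array on the same slide as R175Q replicate 4, wild-type replicate 4, had a median of 0.13 with 67 genes above. The remaining medians were 0.046 and 0.025 for R175Q replicates 2 and 3 and -0.018, -0.025 and -0.046 for wild-type replicates 1 to 3. Over all genes these medians stayed between -0.042 and 0.024. The arrays of slide 4 therefore stood high in both groups, and R175Q replicate 1, alone on slide 1, stood low. Within slides, the median member difference between R175Q and wild type was 0.035 on slide 2, 0.056 on slide 3 and -0.036 on slide 4. Without R175Q replicate 1 the median difference over members was 0.056, and without R175Q replicate 4 it was -0.037.

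**Figure D4:**
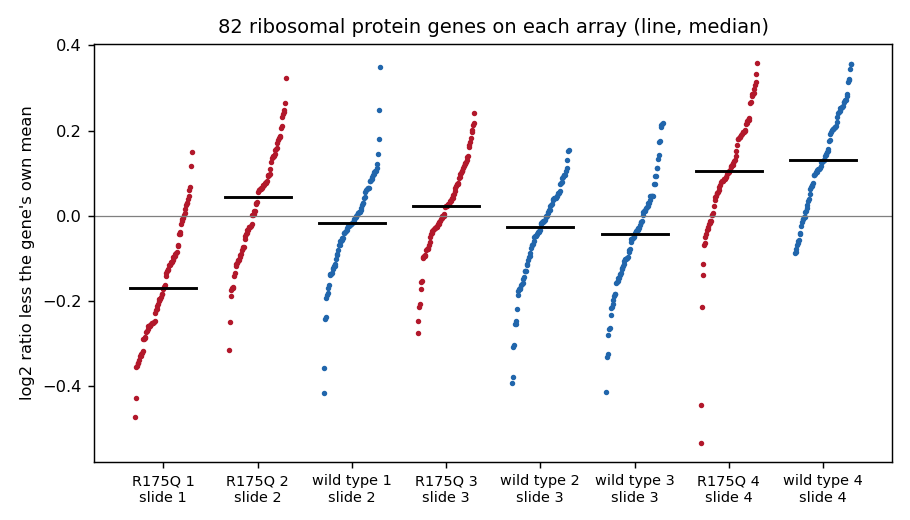
Log2 ratio of each of the 82 ribosomal protein genes on each array, less the midpoint of the gene's group means, with arrays ordered by slide, R175Q in red, wild type in blue and the median as a black line. The medians are lowest on R175Q replicate 1 at -0.17 and highest on the slide 4 arrays, at 0.11 and 0.13.

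The genes around the ribosome were described from lists chosen with earlier results of these data known. Elongation factors and other TOP messenger RNAs gave 0 of 15 called, beside 5.1% of all genes, with a median of -0.038. Initiation factors gave 1 of 38 (2.63%, below the share of all genes): Eif4g3, a scaffold of the cap-binding complex, rose by 0.31 ± 0.071 (adjusted p = 0.0481, limma).

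Ribosome assembly factors gave 1 higher and 2 lower of 78 (3.85%), again below the 5.1% of all genes, at a median of -0.055. Pes1, which acts in the maturation of large subunit ribosomal RNA, had ratios of -0.44, -0.51, -0.34 and -0.26 in R175Q and -0.77, -0.82, -0.83 and -0.71 in wild-type arrays. It rose by 0.40 ± 0.066 (adjusted p = 0.0157), and the groups did not overlap. Las1l, which takes part in removal of an internal spacer from the precursor of large subunit RNA, had ratios of 0.18, 0.11, 0.06 and 0.032 in R175Q and 0.44, 0.44, 0.35 and 0.44 in wild-type arrays. It fell by 0.32 on the log2 scale (SE 0.051, adjusted p = 0.0138). Bysl, a small subunit assembly factor, fell by 0.24 (SE 0.055, adjusted p = 0.046). Las1l and Bysl had positive values under median centring, of 0.069 and 0.15, where the median of all genes was 0.30.

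Regulators of ribosome and TOP messenger RNA synthesis gave 1 higher and 2 lower of 28 (10.7%, beside 5.1% of all genes; the difference between these shares was not tested). Mxd1, which opposes Myc at shared binding sites, had ratios of -0.03, -0.16, 0.16 and -0.077 in R175Q and -0.58, -0.75, -0.40 and -0.71 in wild-type arrays. It rose by 0.58 ± 0.097 (adjusted p = 0.0157), and within slides by 0.42, 0.73 and 0.63. Rps6kb2, a kinase of the ribosomal protein Rps6, had ratios of -0.45, -0.56, -0.60 and -0.55 in R175Q and -0.24, -0.27, -0.20 and -0.31 in wild-type arrays. It fell by 0.29 on the log2 scale (SE 0.052, adjusted p = 0.0221), and Rps6ka1, a kinase downstream of the MAP kinases Erk, fell by 0.31 (SE 0.064, adjusted p = 0.0343); under median centring the values were 0.11 and 0.085, where the median of all genes was 0.30.

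The mitochondrial ribosome is a separate particle with its own proteins. Of 76 of its genes, 1 was called higher and 2 lower (3.95%, beside 5.1% of all genes), at a median of -0.048: Mrpl48 rose by 0.32 ± 0.072 (adjusted p = 0.0483), while Mrpl50 and Mrpl43 fell by 0.25 and 0.22 on the log2 scale (adjusted p = 0.0363 and 0.0398), with values of 0.15 and 0.13 under median centring.

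Most calls in these lists were lost with a slide term or without single arrays. With slide as a fixed block, 0 of 17339 genes were called higher and 1 lower (limma; 2173 at an unadjusted p of 0.05), and none of these 10 named genes passed. Their differences kept their sign on each of the 3 slides that held both groups: Las1l at -0.33, -0.34 and -0.41, Pes1 at 0.26, 0.49 and 0.45, Bysl at -0.22, -0.24 and -0.32, Rps6kb2 at -0.32, -0.37 and -0.24, Rps6ka1 at -0.24, -0.47 and -0.34, Eif4g3 at 0.40, 0.25 and 0.33, Mrpl48 at 0.33, 0.27 and 0.19, Mrpl50 at -0.23, -0.19 and -0.41, and Mrpl43 at -0.24, -0.19 and -0.32, beside Mxd1 above. These genes were chosen for their differences on the same arrays, so a kept sign is not independent of that choice. Where the groups did not overlap, the sign within slides could not differ. Pes1 was lost without wild-type replicate 1 or 2. Mxd1 was lost without R175Q replicate 1 or wild-type replicate 1, 2 or 4, and Las1l without R175Q replicate 2 or wild-type replicate 1, 2 or 4. Rps6kb2 was lost without R175Q replicate 2 or 3 or wild-type replicate 1, 2 or 4, and Rps6ka1 without these or wild-type replicate 3. Eif4g3 and Mrpl50 were lost in 6 of the 8 fits that left out 1 array, Mrpl48 and Mrpl43 in all but that without R175Q replicate 4, and Bysl in all 8. With the negative control background, where 18.7% of all genes were called, all 10 passed. With slide as a fixed block added there, 8 of them passed, where 1028 of 17339 genes were called higher and 1188 lower. The 10 were chosen for passing in the main fit, so these counts are not independent of it.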

How the data were processed

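RNA of 8 samples was hybridised to Agilent two-colour arrays. Linear amplification (2 rounds, from 1 to 2.5 ng of RNA) and labelling (5 µg) are given per the labels' protocols, which also speak of microdissection for what are cultured cells and name the reference RNA once as mouse and once as human. Spot intensity values, local background intensity and a log10 ratio of Cy5 over Cy3 came, per the file headers, from Agilent Feature Extraction 9.5.3.1. The value table the authors deposited holds log2 ratios, read as Cy3 over Cy5 from its correlation with the scanner ratio (Pearson's r across probes 0.954 to 0.962, where genes are not independent replicates). Its column medians were 0.0526 to 0.0617, and its scaling and centring are not given in the sources used here.

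From the intensities, background was corrected by normexp (offset 50) and arrays centred by loess with limma 3.58.1 in R 4.3.3, with control and flagged spots at weight 0. Spots of a probe were averaged. The filter kept probes that were well above background in Cy3 on 4 or more arrays and had an unflagged spot on every array; 1 member probe failed the latter. The brightest probe stands for a gene. R175Q less wild type was tested with limma's moderated test (lmFit, eBayes; two-sided) at a Benjamini-Hochberg adjusted p of 0.05, over all genes or, for single probes, over all probes. Values after ± are standard errors unless named SD. The fit was tested on simulated data.

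Genes named were the 5 members with the lowest p in each direction, paralogs with their partners, the P stalk, members with probes of both signs of which 1 passed, list genes that passed, and Shc1; a few items are not reported here. Members, lists and tests were chosen with earlier results of these data known. RefSeq accessions matched 174 of 190 member probes, and 3 probes had a newer symbol (Rps3a1 for Rps3a, Rps4l for Rps4y2); the text uses the names in the files. Positions are mm9, as the files state them; exons and UTRs were not annotated here. Same-numbered samples correlated at 0.34, 0.43, -0.44 and -0.85 in their deviations from the group means, so the numbers were not taken to pair samples. Alternatives covered background, normalization, filter, probe choice, model, blocks and each array left out.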

Additional observations from a re-analysis of the deposited data

Results flagged for a closer look

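In 5 of 80 groups of 4 arrays, 1 array stood apart from the other 3, with a gap to its neighbour, as a share of the group's range, above Dixon's critical value for 4 samples; chance gives about 1 in 20 groups. For Rplp1, R175Q replicate 3 was at -0.89 while the other R175Q arrays were at -1.18 to -1.14, and wild-type replicate 4 was at -0.72 while the others were at -0.89 to -0.86. For Rplp0, R175Q replicate 1 was at -0.97 and the others at -0.65 to -0.58. For Mrpl50, R175Q replicate 4 was at 0.65 and the others at 0.75 to 0.76. For Las1l, wild-type replicate 3 was at 0.35 and the others at 0.44. These are log2 ratios to the reference.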

How the results depend on the processing

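The median difference over ribosomal protein genes stayed within the spread between arrays (SD 0.10) under 27 of 28 alternatives. Aquantile normalization, the trend and robust options of eBayes, the replicate block and the filter on all 8 arrays cannot change it and left it at 0.00059. With scale normalization it was 0.098, close to that SD. Under median centring it was 0.32, where the median of all genes was 0.30. Leaving out 1 array gave medians of -0.037 to 0.056. Ribosomal protein genes called were 1 higher and 1 lower with no background correction, with the negative control background and with the scanner's processed ratio (Rpl37 and Rplp1). They were also 1 and 1 when a fixed slide block was added to the negative control background (Rpl37 and Rpl7l1). They were 1 higher and 0 lower with the Cy3 channel alone (Rpl37), 1 and 2 with arrayWeights (Rplp1 and Rps24 lower), 1 and 3 with the series' deposited value table (Rplp1, Rpl7l1 and Rps24 lower) and 1 and 0 with every probe on its own. Leaving out 1 array gave 0 to 1 higher and 0 to 1 lower.

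All genes called higher and lower were 1696 and 1694 with no background correction, 1524 and 1713 with the negative control background, 1028 and 1188 with slide as a fixed block added to it, 1465 and 1463 with the scanner's processed ratio, 0 and 0 with median centring (302 genes at an unadjusted p of 0.05, limma), 60 and 54 with scale normalization, 1348 and 1209 with the Cy3 channel alone, 1590 and 1602 with the deposited value table, 2205 and 2679 with arrayWeights, 0 and 1 when slides were a fixed block, 56 and 44 with a block of scan days (added after seeing the data), and 365 and 270 with slide as a random block. Leaving out 1 array gave 151 to 854 higher and 118 to 847 lower, the most without R175Q replicate 4. With the replicate number as a block, 91 genes were called higher and 57 lower, and no ribosomal protein gene was called; the median difference of 0.00059 cannot change with this balanced block. The cause of these shifts was not tested. The Cy3 background fitted by normexp was lowest on R175Q replicate 4 (-690) and highest on R175Q replicate 3 (-0.369), while negative control spots had medians of 13.1 to 22.7. A background fitted that low adds to dim signals on an array, so values of dim genes depend on it. Its part in the count of calls was not tested.

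Under median centring these values turned positive, all below the 0.30 median of all genes: Rplp1 0.039, Rps24 0.098, Rps27 0.13, Rpl36a 0.085, Rpl27a 0.11, Rpl7l1 0.24, Rpl7 0.13, Rpl39 0.20, Rplp0 0.14, Rps6kb2 0.11, Rps6ka1 0.085, Mrpl50 0.15, Mrpl43 0.13, Las1l 0.069, Bysl 0.15 and Shc1 0.28. The list leaves out named genes whose main difference was smaller than its SE. Some of those also changed sign: from negative main values, Rpl36al reached 0.33 and Rps4x and Rplp2 each reached 0.27 under the alternatives. Rpl27a was 0.022 with the Cy3 channel alone, and Rps24 was 0.059 with the mean of its probes, which takes in the variant 1 probe. The variant 1 probe kept its call under 20 of the 25 alternatives that could change its fit. Its difference was positive in all 25, but several of them could not reverse it. Leaving out an array could not, since the groups did not overlap, and the changed filters and the replicate block left it at 0.60. The other 3 (Aquantile normalization, every probe on its own, and the mean of a gene's probes) leave its fit as it is by construction. The call was lost with median centring (0.96), scale normalization (1.35), the replicate block (0.60, adjusted p = 0.111), a fixed block of slides (0.61) or of scan days (0.62).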
